A study of Mus musculus with 4 samples.

Results

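The heavy chain variable segments of plasma cells in mouse colon were the 82 genes whose symbol starts with Ighv and a digit and that summed to at least 20 counts over the 4 libraries, of 152 such genes and 29897 genes of any kind listed. Members were chosen by that total, so their abundance over the series is a description and not a result. The libraries held gene counts of single cells from dissociated colon, with polyadenylated RNA captured on barcoded beads in droplets. In the CCl4 group (2 libraries), specific-pathogen-free mice that were 6 weeks old at the start received CCl4 for 6 weeks. CCl4 is carbon tetrachloride, a solvent used in mice chiefly to injure the liver. In the control group (2 libraries) the treatment label reads control, and no vehicle is named. Neither strain, sex nor the number of animals in a library is given, nor whether both libraries of a group came from the same animals. A difference between the groups therefore cannot be told apart from a difference between the animals in them, and the p-values below measure only the spread between these libraries.

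A developing B cell joins 1 variable (V), 1 diversity and 1 joining segment of the heavy chain locus, and then joins variable and joining segments of a light chain locus (Igkv or Iglv). The cell passes its joined segments to its daughters, so the V segment read from a plasma cell is a label of its descent as well as part of its antibody. Plasma cells are the antibody-secreting end stage of that lineage, and in the gut most of them make IgA, whose heavy chain constant region is encoded by Igha. The V segments lie side by side on 1 chromosome and are sorted by sequence likeness into families, given by the first number of the symbol (Ighv1-39 belongs to family 1). Of the 82 members, 80 are annotated as genes with the same role, to encode the variable domain that contacts antigen, and 2 as pseudogenes. The members are therefore described below by where they were used.

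The germline sequences of 7 segments are printed because 5 of them belong to the 5 most frequent heavy and light pairs, each found in 1 group, as described below. The other 2, Ighv3-6 and Ighv1-26, led many cells in all 4 libraries, although the leading pair of Ighv3-6 was also found in 1 group. Each line is the last 290 bases of the GENCODE M21 transcript, 5′ to 3′, on the coding strand, which is the minus strand of chromosome 12 in GRCm38. The capitals mark the motif TANTNNTGT, the codons around the conserved cysteine near the end of the variable domain, searched on the coding strand in the last 30 bases. The genes span chr12:114914599-114915032 (Ighv1-39), chr12:114523441-114523905 (Ighv10-3), chr12:113653291-113653724 (Ighv2-4), chr12:114059845-114060321 (Ighv14-3), chr12:114357759-114358218 (Ighv13-2), chr12:114288152-114288582 (Ighv3-6) and chr12:114788372-114788805 (Ighv1-26).
Ighv1-39: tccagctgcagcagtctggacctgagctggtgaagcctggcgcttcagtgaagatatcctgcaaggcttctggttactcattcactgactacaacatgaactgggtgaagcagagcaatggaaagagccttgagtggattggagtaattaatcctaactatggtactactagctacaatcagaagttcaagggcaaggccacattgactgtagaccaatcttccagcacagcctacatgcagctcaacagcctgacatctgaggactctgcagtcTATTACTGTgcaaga
Ighv10-3: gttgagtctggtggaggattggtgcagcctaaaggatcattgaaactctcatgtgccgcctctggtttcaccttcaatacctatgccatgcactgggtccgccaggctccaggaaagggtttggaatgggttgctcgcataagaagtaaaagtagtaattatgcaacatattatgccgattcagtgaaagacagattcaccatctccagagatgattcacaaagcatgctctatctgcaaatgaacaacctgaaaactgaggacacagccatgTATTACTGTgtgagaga
Ighv2-4: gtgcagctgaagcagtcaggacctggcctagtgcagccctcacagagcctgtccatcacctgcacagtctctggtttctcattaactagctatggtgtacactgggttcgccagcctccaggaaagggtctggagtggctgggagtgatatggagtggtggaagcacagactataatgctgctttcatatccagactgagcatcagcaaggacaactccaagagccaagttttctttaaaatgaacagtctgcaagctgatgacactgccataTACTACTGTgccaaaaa
Ighv14-3: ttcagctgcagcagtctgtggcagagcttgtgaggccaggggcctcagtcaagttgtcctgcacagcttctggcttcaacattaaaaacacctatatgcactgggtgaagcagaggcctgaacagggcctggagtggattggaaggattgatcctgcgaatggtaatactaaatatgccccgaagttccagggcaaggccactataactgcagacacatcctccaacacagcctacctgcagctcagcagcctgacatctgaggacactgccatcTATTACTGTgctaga
Ighv13-2: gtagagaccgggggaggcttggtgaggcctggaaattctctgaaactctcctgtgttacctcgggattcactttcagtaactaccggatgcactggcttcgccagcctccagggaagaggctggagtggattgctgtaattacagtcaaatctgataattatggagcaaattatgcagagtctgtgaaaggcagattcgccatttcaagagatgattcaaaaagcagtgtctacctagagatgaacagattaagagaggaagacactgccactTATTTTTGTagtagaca
Ighv3-6: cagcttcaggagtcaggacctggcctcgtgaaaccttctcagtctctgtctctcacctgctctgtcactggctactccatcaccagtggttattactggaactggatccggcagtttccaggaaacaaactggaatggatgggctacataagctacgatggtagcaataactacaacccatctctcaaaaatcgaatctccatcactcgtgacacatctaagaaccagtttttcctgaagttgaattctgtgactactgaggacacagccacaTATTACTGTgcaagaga
Ighv1-26: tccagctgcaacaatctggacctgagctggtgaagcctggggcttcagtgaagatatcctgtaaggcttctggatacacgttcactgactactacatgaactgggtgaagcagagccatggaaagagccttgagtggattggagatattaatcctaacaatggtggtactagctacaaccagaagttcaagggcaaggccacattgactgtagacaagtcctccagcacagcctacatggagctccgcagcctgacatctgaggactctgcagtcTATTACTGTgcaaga
Of the 82 members, 79 (96.3%) held the motif in that window, as did 147 of the 183 annotated Ighv segments (80.3%). Ighv1-39, the leading segment of the CCl4 libraries, was 92.8% identical to Ighv1-26 and 60.3% identical to Ighv2-4, the leading segment of the control libraries. Over 290 bases, a member's nearest annotated neighbour had a median identity of 95.9%, and 20 members had a neighbour at 97% or more. Reads of such neighbours can be split by the counting: Ighv2-4 was 97.9% identical to Ighv2-2 and 97.6% identical to Ighv2-5, Ighv1-26 was 97.2% identical to Ighv1-18, and Ighv1-71 and Ighv1-62-2 were 100% identical.

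The 4 libraries held 92383719 and 74643979 counts (CCl4) and 55834301 and 58667918 counts (control). After the cell filters and clustering, 299 and 253 cells of the CCl4 libraries and 550 and 523 cells of the control libraries formed 1 plasma-like cluster, 2.88% and 2.58% against 6.78% and 6.34% of the cells kept. All 10 plasma cell markers were raised in it, and Jchain, the joining chain of secreted IgA, reached 54396 and 56562 CPM in CCl4 and 63071 and 63247 CPM in control cells (CPM are counts scaled to a common total per library). The 10 markers summed to 59229 and 61522 CPM in CCl4 and 68842 and 68852 CPM in control cells. Of the markers of earlier B cells, Ms4a1 was at or near 0 (at most 0.744 CPM), while Cd79a and Cd79b, which plasma cells also hold, were detected. Markers of epithelial cells moved with the groups in the same plasma-like cells. All 6 goblet cell markers were higher in both CCl4 libraries than in both control libraries (summed 118 and 179.5 CPM against 27.3 and 27.2), as were 5 of 6 colonocyte markers (summed 288 and 192 CPM against 69.2 and 96.9) and 4 of 5 general epithelial markers (summed 336 and 250.5 CPM against 160.2 and 168); among them Krt8, a keratin of simple epithelia, had 166 and 114 CPM against 38.6 and 52.3, while Epcam, an adhesion molecule of epithelial cells, overlapped between the groups (107 and 93.2 CPM against 103 and 93.8). Their part in the results below was not tested. The median plasma-like cell had 14186 and 12225 counts in the CCl4 libraries and 14049.5 and 16082 in the control libraries, of which 2.90% and 2.57% against 2.02% and 1.95% were mitochondrial. No plasma-like cell had the same gene counts in 2 libraries; the barcodes are running numbers, so that 8191 to 10738 barcode names recur between any 2 libraries and identify no cell.

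The summed level of Ighv transcripts in plasma-like cells did not separate the groups. They made up 3694 and 3630 CPM in the CCl4 libraries and 3673 and 3554 CPM in the control libraries (exact permutation p = 0.667, two-sided, where 2 against 2 libraries cannot give less than 0.333). A median cell held 44 and 35 Ighv counts in CCl4 and 42 and 42 in control. The plasma-like cluster contained 90.6% and 89.8% of all Ighv counts of the CCl4 libraries and 91.5% and 90.9% of those of the control libraries, and barcodes removed for a high doublet score contained 6.60% and 6.00% against 6.61% and 6.46%.

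A cell was assigned the segment with most counts if that segment had at least 5 counts and at least 50% of the cell's Ighv counts. This gave a segment to 269 of 299 and 235 of 253 CCl4 cells and to 491 of 550 and 500 of 523 control cells, 1495 of 1625 in all (92.0%). In most cells the assignment was clear, since the leading segment held a median of 100% of a cell's Ighv counts in every library. A second segment with 5 or more counts was present in 8 and 4 CCl4 cells and 14 and 15 control cells. Of the 82 members, 78 led at least 1 cell; Ighv1-36, Ighv6-5 and the pseudogenes Ighv1-2 and Ighv6-2 led none. Both groups used 59 members, 7 were used in CCl4 libraries only and 12 in control libraries only, and 35 were used in all 4. The 10 leading segments together held a mean of 43.2% of cells over the 4 libraries.

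Ighv1-39 was the most used segment of both CCl4 libraries, with 23 of 269 cells (8.55%, exact binomial 95% interval 5.50% to 12.6%) and 28 of 235 cells (11.9%, 8.07% to 16.8%). In the control libraries it led 7 of 491 cells (1.43%, 0.575% to 2.92%) and 6 of 500 cells (1.20%, 0.442% to 2.59%). The intervals of the 2 groups do not meet. Like the limits given below, they cover counting error only and treat cells as independent. Yet 19 of 22 and 23 of 27 CCl4 cells of Ighv1-39 with a light chain call carried the same light segment, Igkv14-111. Ighv1-39 and the segments that follow here were the 5 largest rises named for having no overlap. Every CCl4 library therefore lay above every control library by that choice. Ighv10-3 led 15 and 17 CCl4 cells (5.58% and 7.23%) against 3 and 1 control cells (0.611% and 0.20%). Ighv7-3 led 11 and 15 CCl4 cells (4.09% and 6.38%) against 4 and 0 control cells (0.815% and 0). Both segments were thus rare but present among control cells. Ighv10-1 led 12 and 5 CCl4 cells against 0 and 1 control cells. Ighv7-1 led 7 and 7 CCl4 cells (2.60% and 2.98%) and none of 491 and 500 control cells, which allows a share of up to 0.611% and 0.60%.

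Ighv2-4 was the most used segment of both control libraries and led no CCl4 cell. It led 0 of 269 and 0 of 235 CCl4 cells, which allows shares of up to 1.12% and 1.28%, against 77 of 491 control cells (15.7%, 12.6% to 19.2%) and 53 of 500 (10.6%, 8.04% to 13.6%). Ighv14-3 led 1 and 0 CCl4 cells against 38 and 45 control cells (7.74% and 9.0%). Ighv13-2, the only listed gene of its family, led no CCl4 cell and 21 and 26 control cells (4.28% and 5.20%). Ighv1-85, the segment farthest from the J segments, led no CCl4 cell and 14 and 6 control cells (2.85% and 1.20%). These 4 segments were among the largest falls named for having no overlap, so every control library lay above every CCl4 library by that choice.

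The remaining leading segments were used in all 4 libraries. Ighv3-6 led 11 and 11 CCl4 cells (4.09% and 4.68%) against 32 and 33 control cells (6.52% and 6.60%), so that the groups did not overlap although the intervals of single libraries did. Ighv1-26 led 14 and 15 CCl4 cells (5.20% and 6.38%) and 30 and 20 control cells (6.11% and 4.0%), with overlapping groups. Ighv1-76 led 16 and 3 CCl4 cells (5.95% and 1.28%) against 18 and 13 control cells (3.67% and 2.60%), and Ighv1-9 led 6 and 12 CCl4 cells (2.23% and 5.11%) against 15 and 14 control cells (3.05% and 2.80%). In both of these the CCl4 libraries lay on either side of the control libraries. Ighv1-72 led 15 and 6 CCl4 cells (5.58% and 2.55%) against 8 and 7 control cells (1.63% and 1.40%). Over all 82 members, the shares of the groups did not overlap for 33, of which 17 were higher and 16 lower in CCl4; for scale, the CPM of 44.5% of all genes tested below did not overlap.

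**Figure D1:**
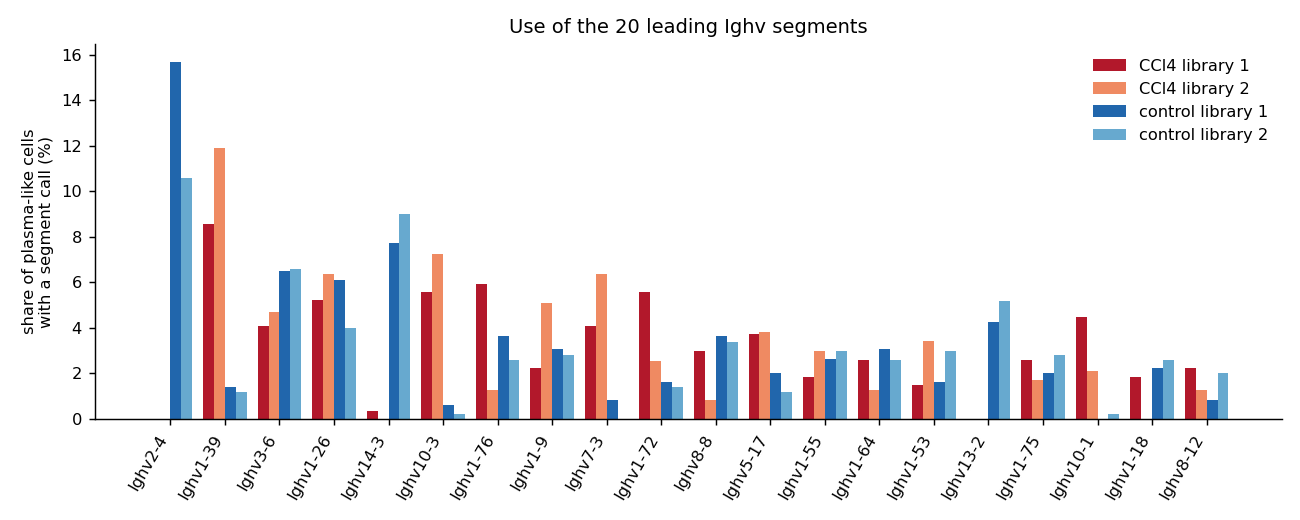
Share of plasma-like cells with a segment call (y axis, %) that each of the 20 leading Ighv segments led (x axis, ordered by the mean over the libraries); each bar is 1 library, CCl4 in red shades and control in blue shades. Ighv2-4 and Ighv13-2 have no CCl4 bar, while Ighv1-39 reaches 8.55% and 11.9% in CCl4 against 1.43% and 1.20% in control, and the bars of Ighv1-26 overlap.

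The number of segments in use did not separate the groups once the number of cells was matched. The CCl4 libraries used 54 and 58 segments and the control libraries 62 and 64, with more control cells to draw from. Thinned to 235 cells each, they would use 52.1 and 58 against 51.7 and 53.9. The effective number of segments (inverse Simpson index, the number of equally used segments that would give the same chance of drawing the same segment in 2 cells) was 31.6 and 26 in CCl4 and 20.2 and 26.5 in control, means of 28.8 ± 3.93 and 23.4 ± 4.43 (SD, n = 2 each; exact permutation p = 0.667). The groups overlapped, and the difference of 5.45 was 1.0 with the exponential of the Shannon entropy, which gives rare segments more weight. The 5 leading segments of a library held 30.9% and 37.0% of CCl4 cells and 40.3% and 35.4% of control cells. The largest single share averaged 10.2% ± 2.38 in CCl4 and 13.1% ± 3.59 in control (SD, n = 2 each; exact permutation p = 0.667).

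Which segments were used differed more between the groups than within them. The Morisita-Horn index, which is 0 for no shared segment and 1 for the same shares, was 0.86 between the 2 CCl4 libraries and 0.94 between the 2 control libraries, against 0.37 to 0.45 for the 4 pairings of a CCl4 with a control library. The lower of the within-group values was thus above the highest between-group value, with 1 pairing inside each group; this was not tested, and 2 against 2 libraries could not give an exact permutation p under 0.333. Presence alone separated the groups less: 46 segments were shared by the CCl4 libraries (85.2% and 79.3% of those each used), 55 by the control libraries (88.7% and 85.9%) and 44 to 47 by a CCl4 and a control library (79.3% to 85.2% of the CCl4 list and 71.0% to 75.8% of the control list). Light chain variable segments showed the same order, at 0.94 within CCl4, 0.94 within control and 0.55 to 0.64 between them.

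The same heavy segment recurred with the same light segment in many cells of a library. Of the cells with a heavy call, 261 and 230 CCl4 cells and 476 and 480 control cells also had a light chain call by the same rule, and they fell into 131 and 121 against 184 and 191 distinct heavy and light pairs. Cells whose pair recurred in the same library were 71.6% and 64.3% of CCl4 cells and 77.9% and 77.1% of control cells. The chance that 2 cells of a library had the same pair was 1.27% and 1.96% in CCl4 and 3.55% and 2.44% in control, which is 10.8 and 11.0 times and 11.5 and 12.3 times the product of the shares for the same heavy and the same light segment alone. In every library, pairs thus recurred above that product. Whether cells with the same pair descend from 1 cell was not tested, since the joined sequence between the segments was not analysed here.

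Most frequent pairs of 1 group were not found in the other. All 129 Ighv2-4 cells with a light call carried Igkv8-21, 0 and 0 cells in CCl4 and 77 and 52 cells in control. Ighv14-3 occurred with Iglv1 in 0 and 0 CCl4 cells and in 32 and 39 control cells, and Ighv13-2 with Igkv10-94 in 0 and 0 CCl4 cells and 19 and 24 control cells. Both control libraries held each of these pairs, the first at 16.2% and 10.8% of their cells. Ighv1-39 occurred with Igkv14-111 in 19 and 23 CCl4 cells and no control cell, and the 7 and 6 control cells with Ighv1-39 used 4 and 3 other light segments. Ighv10-3 occurred with Igkv9-124 in 14 and 15 CCl4 cells, and Ighv1-9 with Igkv4-86 in 5 and 10 CCl4 cells, with none in control. Ighv3-6, used in both groups, occurred with 26 light segments, and its leading pair, with Igkv17-121, was in no CCl4 cell and in 11 and 15 control cells.

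Some pairs did cross the groups. Ighv5-16 occurred with Igkv1-110 in 0 and 2 CCl4 cells and 5 and 7 control cells, and Ighv1-55 with Igkv1-117 in 2 and 1 CCl4 cells and 3 and 6 control cells. Ighv1-26 was spread over 26 light segments, the leading one, Igkv12-46, holding 11.8% of its cells. Of the 95 pairs with at least 4 cells, 21 were in CCl4 only (19 of them in both CCl4 libraries), 54 in control only (48 in both control libraries) and 20 in both groups. The minimum of 4 cells is over all libraries and control had more cells to draw from, so the counts of pairs in CCl4 only and in control only cannot be set against each other. The CCl4 libraries shared 48 pairs, which held 54.8% and 59.6% of their cells, and the control libraries shared 75, which held 68.5% and 66.0%. A CCl4 and a control library shared 13 to 16 pairs, which held 8.26% to 11.3% of the CCl4 cells and 5.42% to 7.14% of the control cells. On the Morisita-Horn scale the pairs overlapped at 0.78 within CCl4 and 0.89 within control, and at 0.014 to 0.019 between them.

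**Figure D2:**
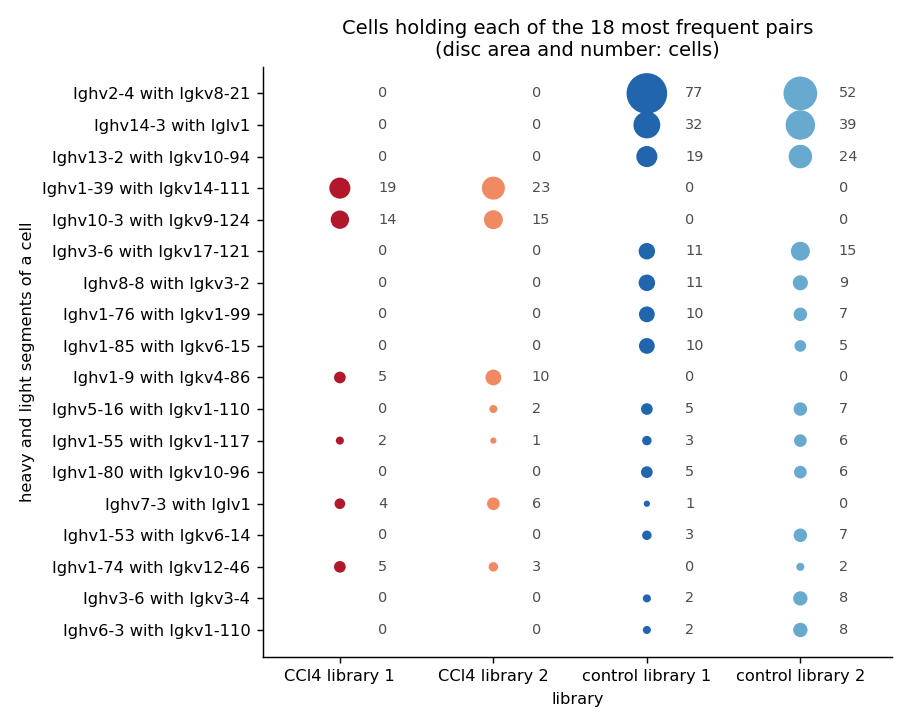
Cells of each library (x axis) that hold each of the 18 most frequent heavy and light segment pairs (y axis); the disc area and the number beside it give the cells. The pairs of Ighv1-39 (19 and 23 cells) and Ighv10-3 (14 and 15) occur in both CCl4 libraries and no control library, and the pairs of Ighv2-4 (77 and 52), Ighv14-3 and Ighv13-2 in both control libraries and no CCl4 library.

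Counting each pair of a library once, whatever its number of cells, brought the overlap between groups close to that within them, an alternative chosen after seeing the data. The overlap was then 0.8144 within CCl4, 0.89 within control and 0.70 to 0.8145 between the groups, so that the highest between-group value lay just above the value within CCl4. The within-group mean exceeded the between-group mean by 0.084, against 0.50 when cells were counted. Ighv1-26 and Ighv3-6 then had the highest mean shares. Ighv1-26 held 6.11% and 6.61% of pairs in CCl4 against 8.15% and 4.71% in control, and Ighv3-6 held 4.58% and 8.26% against 5.43% and 4.19%, so that in both the groups overlapped. Ighv1-39 held 3.05% and 4.13% of pairs in CCl4 and 2.17% and 1.57% in control. The effective number of segments was then 49.2 and 48.4 in CCl4 and 44.4 and 51.8 in control. The shares of the groups did not overlap for 38 of the 82 members, against 33 when cells were counted. For scale, the CPM of 44.5% of all genes tested in all plasma-like cells did not overlap. The totals of 131 and 121 pairs against 184 and 191 can separate shares by themselves. Ighv1-50 had 2 pairs in every library and is among the 38. From these counts edgeR called 14 of 69 Ighv genes tested, against 0.655% of all genes tested. Of the 14, 11 were among the 17 called from all cells.

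**Figure D3:**
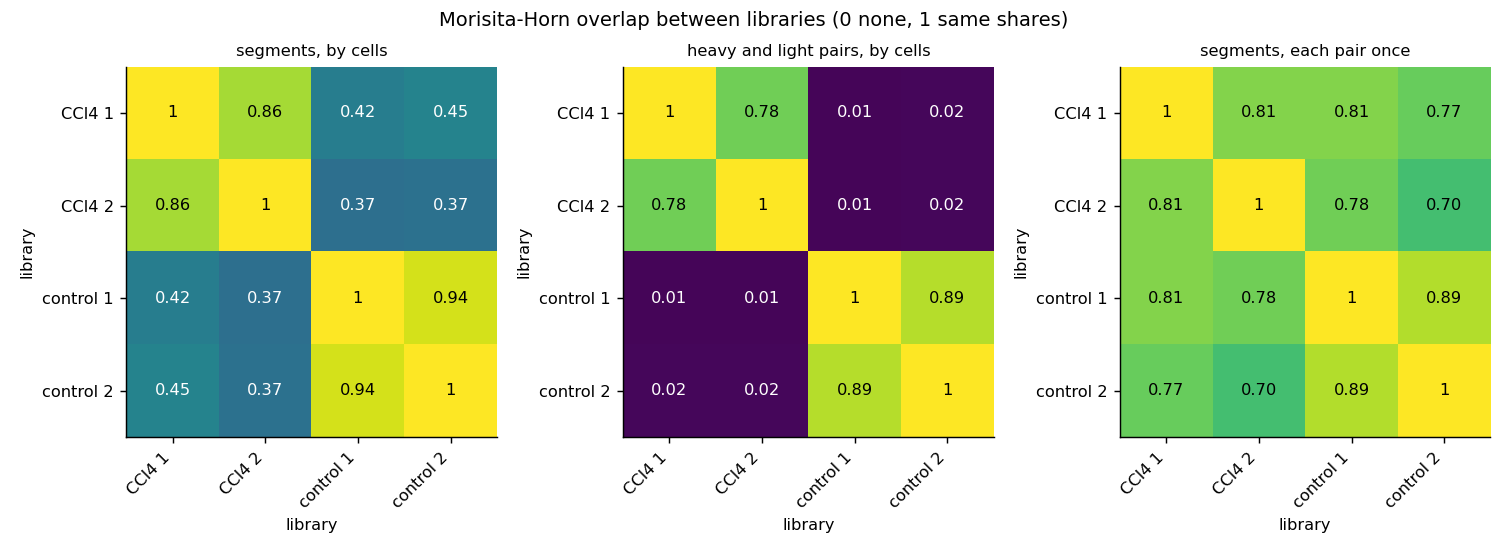
Morisita-Horn overlap (colour and number, 0 for none and 1 for the same shares) for each pair of libraries (both axes) by segments over cells, by heavy and light pairs over cells, and by segments with each pair counted once. In the left and middle panels the values within a group (0.86 and 0.94, 0.78 and 0.89) stand above those between the groups, which are 0.37 to 0.45 and 0.014 to 0.019; in the right panel they are 0.70 to 0.81 between the groups and 0.81 and 0.89 within them.

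Counts summed over the plasma-like cells of each library were then compared between the groups. edgeR's quasi-likelihood test with Benjamini-Hochberg adjustment over 11032 genes called 17 of the 72 members that passed the filter on low counts, 7 higher and 10 lower in CCl4 (23.6%), against 1.47% of all genes tested (1.04% higher and 0.426% lower). A member can pass that filter through the group where it is high, so the share is a description of these 72 and not of all 82. At an unadjusted p under 0.05 there were 36, against 13.1% of all genes tested. The fitted ratio passed 2-fold in 40 members (55.6%), against 8.21% of all genes, while the median log2 ratio was 0.07 for the members and -0.0017 for all genes. The members also varied more between libraries of 1 group, with a median biological coefficient of variation of 0.359 against 0.178 for all genes. Their CPM did not overlap between the groups in 42 members (58.3%), against 44.5% of all genes tested. Leaving out a library raised the count of calls to 35 (without CCl4 library 1), 38 (without CCl4 library 2), 25 (without control library 1) and 29 (without control library 2), where the remaining lone library is assumed to vary like the pair of the other group.

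Ighv1-39 had 330 and 406 TMM-scaled CPM in CCl4 against 49.9 and 52.8 CPM in control, a log2 ratio of 2.84 (SE 0.136, edgeR adjusted p = 2.15e-05). Ighv10-3 had 258 and 336 CPM in CCl4 against 32.8 and 20.5 CPM in control, a log2 ratio of 3.48 (SE 0.226, edgeR adjusted p = 0.00016). Both were among the rises of share named for having no overlap, and in CPM too all CCl4 libraries lay above all control libraries. With each pair counted once the ratios were 1.11 for Ighv1-39 and 0.87 for Ighv10-3, with edgeR adjusted p = 0.0806 and 0.739. Ighv7-1 had 531 and 552 counts in CCl4 and none in control, and Ighv1-20 had 392 and 321 counts against none. Taking 3 counts over the control group as the floor, summed counts were at least 784-fold (Ighv7-1) and 516-fold (Ighv1-20) higher in CCl4. These floors treat transcripts as independent, although a cell led by Ighv7-1 held a median of 77 counts. They are no bound on the share of cells, which for Ighv7-1 was 2.60% and 2.98% in CCl4. In control, 0 cells allow up to 0.611% and 0.60%. Ighv1-20 rested on 5 and 3 CCl4 cells, all of which carried Igkv9-124.

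Ighv10-1 had 287 and 72.2 CPM in CCl4 against 0.136 and 4.1 CPM in control (log2 ratio 6.31, SE 0.839, edgeR adjusted p = 0.00948). The CCl4 libraries differed from each other here, and 1 cell of CCl4 library 1 alone held 431 counts. The last 2 of the higher calls rested on few cells. Ighv2-3 had 124 and 48 counts in CCl4 with 1 and 2 cells led by it, against 3 and 10 in control. Ighv2-9-1 had 15 and 85 counts in CCl4 with 1 cell led by it in each, against 2 and 1 in control, and 37.8% of its counts were in barcodes removed for a high doublet score. The call of Ighv2-9-1 was lost with those barcodes kept, without CCl4 library 2 and without control library 1 (edgeR adjusted p = 0.105, 0.192 and 0.0586).

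Among the lower calls, Ighv14-3 had 7.60 and 0 CPM in CCl4 against 215 and 209 CPM in control (log2 ratio -5.67, SE 0.556, edgeR adjusted p = 0.00198). The CCl4 counts were 34 and 0, with 1 cell led by the segment, whose light segment was Igkv6-20. Its call was lost with DESeq2 (adjusted p = 0.435) and with each pair counted once (log2 ratio -2.65, edgeR adjusted p = 0.111). Ighv2-4 had 4 and 0 counts in CCl4 against 6515 and 4312 in control, which per count in the class is a ratio of control to CCl4 of 1247 (95% counting interval 487 to 4576; edgeR adjusted p = 2.19e-05). Ighv13-2 had 0 and 1 counts in CCl4 against 1634 and 2550 in control, a ratio of 1927 (346 to 76130; edgeR adjusted p = 3.72e-06). Ighv1-85 had 1 and 0 against 731 and 368 counts, a ratio of 506 (90.7 to 20010; edgeR adjusted p = 0.00128). These CCl4 counts were at the level of single transcripts, while the control libraries held 21 to 77 cells led by Ighv2-4 or Ighv13-2. The counting intervals treat transcripts as independent, although a cell led by Ighv2-4 held a median of 72.5 counts. They therefore do not bound a ratio of cells.

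Ighv2-5 had no count in CCl4 plasma-like cells and 341 and 611 counts in control with 4 and 6 cells led by it. Its summed counts were at least 146-fold lower in CCl4. Ighv1-15, Ighv9-2 and Ighv1-7 likewise had no count in CCl4 plasma-like cells, with summed counts at least 48.4-fold, 42.8-fold and 28.4-fold lower. Each was led by 5 to 7 control cells. Outside the plasma-like cells, CCl4 library 1 held 9 counts of Ighv2-5, 3 of Ighv1-15 and 1 of Ighv1-7. CCl4 library 2 held 2 of Ighv9-2 and 1 of Ighv1-7. These segments led 0.407% to 1.20% of control cells, while 0 cells in CCl4 allow up to 1.12% and 1.28%. The cells of single libraries therefore bound no ratio. Ighv1-56 had 1 and 0 counts in CCl4 against 84 and 43 in control (ratio of control to CCl4 58.5, 10.3 to 2328). It led 1 cell of control library 1 and 0 cells of control library 2, so its 43 counts there led no cell. In cells led by Ighv1-55 it was the leading other segment, with 4.51% of their Ighv counts, and was present in 6 of them. It lost its call without control library 1, where its log2 ratio was -5.08. Ighv1-75 was called without being near 0 in either group. As a share of cells its groups overlapped, with 7 and 4 CCl4 cells (2.60% and 1.70%) against 10 and 14 control cells (2.04% and 2.80%). It had 39.6 and 38.2 CPM in CCl4 against 77.5 and 88.0 CPM in control, a log2 ratio of -1.09 (SE 0.138, edgeR adjusted p = 0.00777), and -1.32 with each pair counted once (edgeR adjusted p = 0.149). Its cells carried 11 light segments, with no CCl4 cell and 5 and 4 control cells in the pair with Igkv3-4, and 4 and 3 CCl4 cells and no control cell in the pair with Igkv12-44. The calls of Ighv1-15, Ighv9-2, Ighv1-56, Ighv1-75 and Ighv2-9-1 were lost with cells chosen one by one by 3 markers in place of the cluster.

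Of the leading segments used in both groups, Ighv3-6 had 185 and 281 CPM in CCl4 against 411 and 457 CPM in control and just missed the threshold (log2 ratio -0.90, SE 0.178, edgeR adjusted p = 0.0501). The sign of this ratio changed to 0.81 with each pair counted once (edgeR adjusted p = 0.402), and the value passed the threshold with immunoglobulin genes left out of the library sizes (edgeR adjusted p = 0.0496). Ighv7-3 had 184 and 261 CPM against 25 and 0 CPM (log2 ratio 4.20, SE 0.953, edgeR adjusted p = 0.0839). Ighv1-26 had 249 and 317 CPM in CCl4 and 405 and 193 CPM in control, a log2 ratio of -0.08 (SE 0.286, edgeR adjusted p = 0.949), and its groups overlapped.

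**Figure D4:**
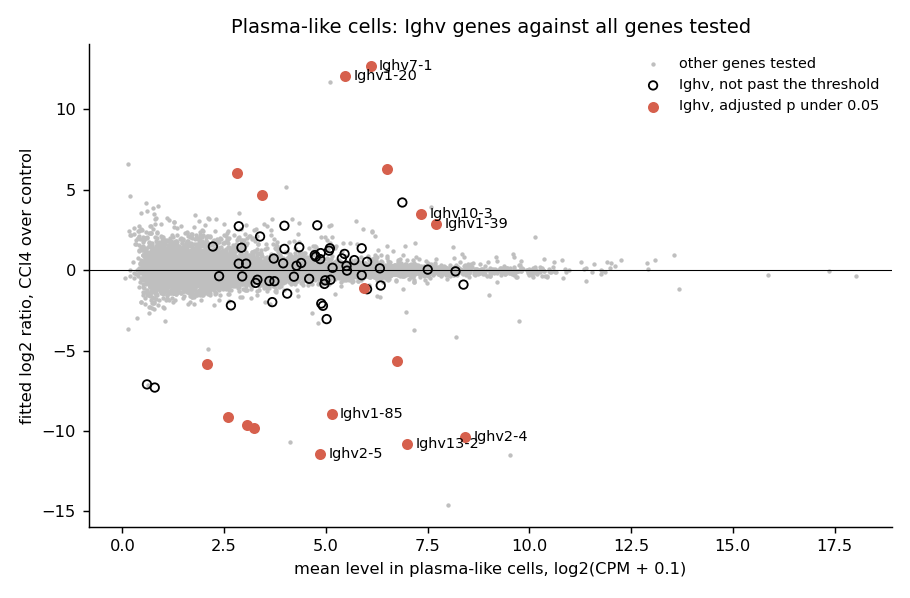
Fitted log2 ratio of CCl4 over control (y axis) against the mean level in plasma-like cells, log2(CPM + 0.1) (x axis), for the 11032 genes tested; grey points are other genes, open circles Ighv genes that did not pass and red points the 17 Ighv genes with an edgeR adjusted p under 0.05. The Ighv genes spread above and below 0 at levels where most other genes lie near 0, and the outermost points are genes at or near 0 in 1 group, whose fitted ratio is no measure of size.

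By family, the CCl4 libraries used family 1, the largest with 44 members, in 55.0% and 54.9% of cells, against 45.2% and 45.2% in control. Family 10 (Ighv10-1 and Ighv10-3) led 10.04% and 9.36% of CCl4 cells against 0.611% and 0.40% of control cells, and family 7 led 6.69% and 9.36% against 0.815% and 0. Families 2, 13 and 14 went the other way. Family 2 led 3.72% and 2.13% of CCl4 cells against 18.9% and 14.6% of control cells, family 13 led 0 and 0 against 4.28% and 5.20%, and family 14 led 1.49% and 2.55% against 10.2% and 10.2%. Within family 2, Ighv2-4 alone led 77 of the 93 and 53 of the 73 control cells of family 2.

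The members lie between chr12:113588267-116000461 (GRCm38), from Ighv2-2 to Ighv1-85, over 2.41 Mb. Among the 28 members nearest the J segments, the share of cells was 26.4% and 31.5% in CCl4 and 43.6% and 40.8% in control. Among the 27 in the middle it was 36.4% and 43.0% against 23.4% and 24.2%, and among the 27 farthest 37.2% and 25.5% against 33.0% and 35.0%, where the groups overlapped. The nearest members include Ighv2-4, Ighv14-3 and Ighv3-6, and the middle ones Ighv1-39 and Ighv10-3, so these shares follow the leading segments named above.

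**Figure D5:**
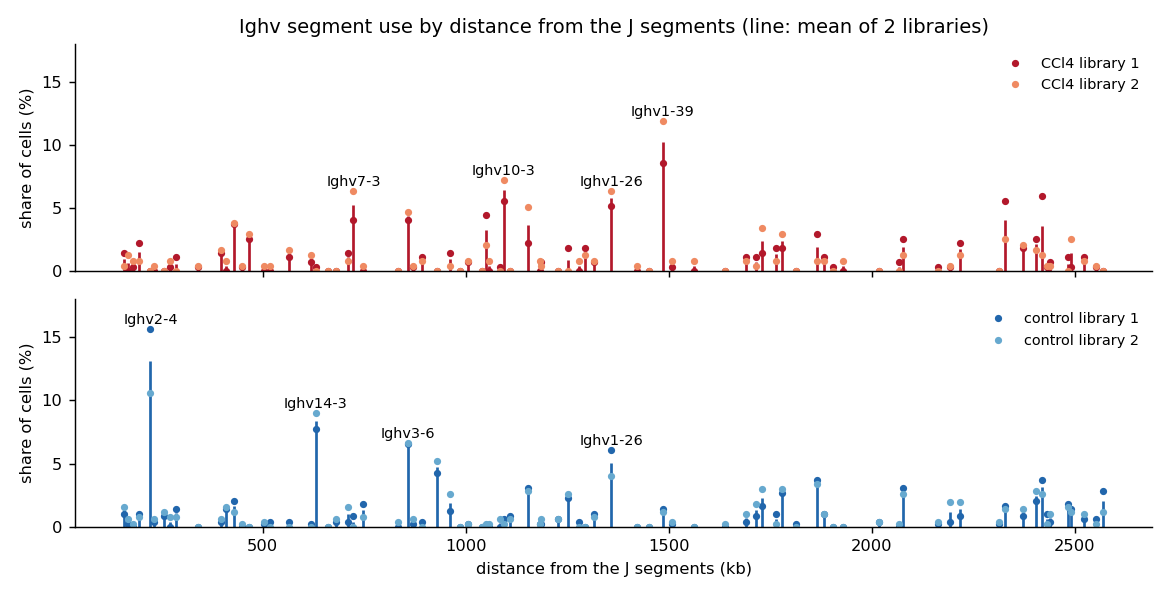
Share of plasma-like cells led by each member (y axis, %) against its distance from the J segments (x axis, kb), CCl4 above and control below; points are libraries and lines the mean of 2 libraries, and the 4 leading segments of each group are named. The highest lines of the CCl4 group (Ighv1-39) and of the control group (Ighv2-4) lie at different places, and used segments are spread over the whole length in both.

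Nearly all of these cells were of the IgA class. Igha was the constant region gene with most counts in 99.0% and 98.8% of CCl4 cells and 98.0% and 97.5% of control cells, and in all 130 cells led by Ighv2-4, all 84 led by Ighv14-3, all 47 led by Ighv13-2, all 36 led by Ighv10-3 and 63 of 64 led by Ighv1-39. The cells of IgG isotypes were few. Ighg2c led in 0 and 0 CCl4 cells and 5 and 4 control cells, and Ighg1 in 3 and 2 CCl4 cells and 2 and 4 control cells, the 4 of control library 2 all with Ighv9-3. Of 12 constant region and J chain genes tested, edgeR called 1 higher in CCl4 and 3 lower, against 1.04% and 0.426% of all genes tested. At an unadjusted p under 0.05 there were 9, against 13.1% of all genes tested, and the median log2 ratio was -0.32. Ighg2b led in 0 and 0 CCl4 cells and 2 and 4 control cells, while its counts were 996 and 432 in CCl4 and 12173 and 12650 in control. How many cells those counts came from was not tested. Ighg2b had 223 and 121 CPM in CCl4 against 1656 and 1442 CPM in control (log2 ratio -3.17, SE 0.246, edgeR adjusted p = 0.000493), and Ighg2c had 0.671 and 0.281 CPM against 2032 and 922 CPM (edgeR adjusted p = 2.19e-05). Ighg1 was not called but went the other way, with 2823 and 846 CPM in CCl4 against 293 and 574 CPM in control (log2 ratio 2.08, SE 0.493, edgeR adjusted p = 0.0962). Ighg3 overlapped between the groups (4.92 and 16.8 CPM against 12.7 and 20.7). Igha had 235974 and 228029 CPM in CCl4 against 323372 and 278868 CPM in control (log2 ratio -0.38, edgeR adjusted p = 0.079).

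The lambda light chain constant genes moved in different directions. Iglc3 had 8067 and 8032 CPM in CCl4 against 18534 and 17664 CPM in control (log2 ratio -1.17, edgeR adjusted p = 0.000181), and Iglc2 had 4470 and 4629 CPM against 3232 and 3106 CPM (log2 ratio 0.52, edgeR adjusted p = 0.0226). These are near-identical copies, so the split of reads between them is uncertain. Of 12 genes of the plasma cell programme, edgeR called 0 (6 at an unadjusted p under 0.05, against 13.1% of all genes tested) and DESeq2 2 (against 1.87%), with a median log2 ratio of -0.23. Of 9 survival and homing receptor genes, both tools called 0 (3 at an unadjusted p under 0.05 in edgeR; median 0.03), and of the 5 tested of 9 recombination and hypermutation genes, both also called 0 (1 at an unadjusted p under 0.05 in edgeR; median -0.03). In the plasma cell programme, Prdm1, the transcription factor that drives plasma cell fate, had 142 and 123 CPM in CCl4 and 135 and 145 CPM in control, and Xbp1, which expands the secretory machinery, had 1526 and 1502 CPM against 2310 and 1885 CPM (log2 ratio -0.47, edgeR adjusted p = 0.0954).

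The members differed in how many counts they gave per cell. Among the 42 segments that led at least 10 cells, the median count of the segment in its own cells ranged from 11.5 (Ighv1-69) to 93 (Ighv2-5), an 8.09-fold range, while the median Igha count of the same cells ranged over 2.07-fold, from 2801 to 5798.5. Ighv1-72 was low, with 15 counts in its 36 cells, and Ighv2-4 had 72.5, Ighv13-2 78, Ighv1-39 47 and Ighv14-3 40.5. Summed counts therefore weight the segments unequally. Other segments made up a median of 1.5% of the Ighv counts in such cells. The highest such share, 11.0%, was in Ighv1-80 cells, where Ighv1-81 gave 9.89% and was present in 10 of 20 cells.

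Ighv counts outside the plasma-like cells were few and followed the plasma cells of the same group. Fibroblasts, which do not rearrange the locus, had at least 1 Ighv count in 1.93% and 2.01% of CCl4 cells and 3.07% and 4.25% of control cells, at median depths of 4388, 3909, 3715 and 4029.5 counts, against 96.99% and 99.2% of CCl4 and 97.8% and 97.7% of control plasma-like cells. Such shares mark the background. A leading segment of 5 or more counts occurred in 0 and 0 CCl4 and 1 and 1 control fibroblasts, so the rule used here assigned almost none of them. The segments found among the other cells that had fewer than 5 counts overlapped with the plasma-like cells of the same group at 0.77 to 0.94 and with those of the other group at 0.26 to 0.39.

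At the threshold of 20 counts, Ighv6-2 (24 counts) and Ighv1-2 (31) lay just inside and Ighv3-1 (19) and Ighv5-2 (13) just outside, and the 70 genes below it held 275 counts together, against 97887 in the members. In a few members many counts lay outside the plasma-like cells. Ighv6-2 had none of its counts in plasma-like cells. Ighv1-36 had 3.61%, with 71 of its 83 counts in a single barcode of CCl4 library 1 that was removed for its doublet score. Ighv5-12 had 61.2% and Ighv9-2 62.4%, each with most of the rest in such barcodes.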

How the data were processed

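Colon cells of 2 CCl4 and 2 control libraries were analysed. Per the file headers, PISA v0.12b had produced the deposited tables, which hold whole-number counts for each gene in each barcode with no scaling. The submitters' processing notes name GRCm38; an aligner and a strand setting are not given in the sources used here. No barcode had fewer than 1001 counts.

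Barcodes had to show 200 genes or more and no more than 25% mitochondrial counts, and the 6% with the highest Scrublet scores were removed in each library. Cells were clustered with scanpy 1.11.5 (2000 variable genes without receptor segments, 30 components, 15 neighbours, Leiden resolution 1). The plasma-like cluster was named from its markers. Groups came from the sample titles. Counts summed per library were tested with edgeR 4.0.16 (quasi-likelihood, TMM, filterByExpr, adjusted p under 0.05 over all genes); single values were compared by the exact permutation test. On simulated data the edgeR step recovered 41 of 100 genes changed by a log2 ratio of 1 and 95 of 100 changed by 2. It made 13 false calls there, with 10625 genes tested. A 2-fold change thus often went uncalled. Intervals are exact (Clopper-Pearson) at 95%, and a count of 0 was taken to allow 3. Sequences and positions came from GENCODE M21, in which all 82 members were found.

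Named segments were the 10 most used, the leading one of each library, the 5 largest rises and falls of share without overlap, the edgeR calls (up to 10 per direction) and the neighbours of the 20-count threshold; pairs and other values were picked after they were seen. The members and lists were chosen with earlier results of these data known. Alternatives covered the test, scaling, filters, doublets, cell definition, call rule, index, replicates and the replicate block. Library numbers were not taken to pair the libraries. Deviations of same-numbered libraries correlated at 0.048 over all genes tested and -0.233 over Ighv genes, which cannot exclude a pairing.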

Additional observations from a re-analysis of the deposited data

How the results depend on the processing

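The number of Ighv genes called by edgeR was 17 and stayed between 12 and 19 with DESeq2, other scalings, stricter cells, doublets kept, cells chosen by 3 markers and each pair counted once. It was 55 with no filter on low counts, which tests 121 Ighv genes, and 25 to 38 with 1 library left out. With library number as a replicate block it was 22, among them all 17; deviations of same-numbered libraries correlated at 0.048 over all genes and -0.233 over Ighv genes, so the numbers were not taken to pair the libraries, and no crossed pairing was fitted. Over the 17 called genes and the alternatives in which each was tested, 205 of 219 values kept direction and call, 14 lost the call and 0 reversed. The cells chosen by 3 markers lost 5 calls (Ighv1-15, Ighv1-56, Ighv1-75, Ighv2-9-1 and Ighv9-2) and each pair counted once lost 4; Ighv1-56 and Ighv9-2 did not pass the filter on low counts there. The difference in the effective number of segments (CCl4 minus control 5.45) was 0.68 with each pair counted once and 1.0 with the Shannon index, and 2.32 to 8.59 with 1 library left out. The difference in the largest single share (-2.91 percentage points) was -7.46 by summed counts and 0.49 with each pair counted once, and -0.367 to -5.45 with 1 library left out. The difference in Ighv CPM (48.4) was -11.2 to 107.9 with 1 library left out, and -2.50 counts as a median per cell. The overlap within groups minus between groups (0.50) was 0.084 with each pair counted once, 0.111 with Jaccard and 0.264 with Bray-Curtis, and kept its direction in all alternatives run. The recurrence of pairs above the product (mean 11.4-fold) was 11.3-fold with minimums of 2 and 10 counts. The cause of these changes was not tested, except that the filter and left-out libraries change the genes or samples tested. With 235 to 500 cells assigned per library, a segment led by no cell may still hold up to 0.60% to 1.28% of cells.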
